A study of Homo sapiens with 4 samples.

Results

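The genes described here are 7 metallothioneins, MT1A, MT1E, MT1F, MT1G, MT1M, MT1X and MT2A, together with MTF1 and SLC30A1. They were picked by symbol, 9 of the 37468 features counted, and no threshold on their values was used. Metallothioneins are small cysteine-rich proteins that bind zinc and copper and also take up cadmium. MTF1 is the zinc-sensing transcription factor that binds short metal response elements in metallothionein promoters. SLC30A1, also called ZnT1, carries zinc out of the cell across the plasma membrane and is a known MTF1 target. Metallothioneins respond to metals, glucocorticoids and oxidants, so they are often read as a sign of zinc load or of stress in tumour cells.

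The cells were MSTO-211H, a human line from a biphasic pleural mesothelioma, grown in serum-free suspension culture with EGF, bFGF, heparin and SM1 supplement. All 4 libraries came from this 1 line, given as WT in the labels. The Drug_Radiation library came from cells given 10 µM QTP and irradiated with 4 Gy on the following day. The Drug library came from cells given 10 µM QTP alone, the Radiation library from cells given 4 Gy alone, and the Control library from cells given neither. The design names a vehicle for cells without QTP. Cells were collected 48 h after irradiation and pooled before capture, with 1 library per group. With no replicate library there was no test between groups, and every interval below covers counting error only.

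The kept cells numbered 6990 in Drug_Radiation, 3802 in Drug, 2425 in Radiation and 3183 in Control. Depth differed strongly between libraries, with a median of 18024.5 UMIs per cell in Drug_Radiation, 20405 in Drug, 5299 in Radiation and 2318 in Control. A UMI marks 1 captured transcript, and no barcode was shared between any pair of libraries. Levels are UMIs per 1000000 nuclear-encoded UMIs (CPM), not scaled by gene length. Of the 12 mesothelial and mesothelioma markers examined, KRT8, KRT18 and VIM were abundant in every library, each at 1786 CPM or more. CALB2 was at 32.1, 49.2, 31.5 and 27.6 CPM in Drug_Radiation, Drug, Radiation and Control, and THY1 at 51.6, 62.4, 54.2 and 32.4 CPM. MSLN, at 14.05, 13.2, 12.2 and 8.27 CPM in the same order, and WT1 were low. KRT7 stood at 5.70 CPM or less, KRT19 at 0.390 CPM or less, and PDPN, LRRN4 and UPK3B at 0.233 CPM or less. The 8 immune markers summed to 39.6, 40.2, 41.7 and 16.8 CPM in the same order, nearly all of it CD68, with the leukocyte gene PTPRC at 0.335 CPM or less and 4 and 5 of the 8 at 0 in Control and Radiation. The 4 neural markers summed to 29.5, 36.9, 24.1 and 23.7 CPM, and the endothelial and blood markers to 2.90 CPM or less. The part of these sums in the results was not tested.

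The 7 metallothioneins lie in 1 cluster on chromosome 16. In GRCh38 with GENCODE 29, MT2A runs from chr16:56608199-56609497 and MT1X from chr16:56682424-56684196, both on the plus strand. The 76.0 kb from the start of MT2A to the end of MT1X also holds MT1E, MT1M, MT1A, MT1B, MT1F, MT1G and MT1H, of which MT1G alone is on the minus strand. MTF1 (chr1:37809567-37859620) and SLC30A1 (chr1:211571568-211578742) are both on the minus strand of chromosome 1. Each member's gene identifier in the annotation matched the one in the files.

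RefSeq promoters (GRCh38.p14, 250 bases before and 50 after the start) were matched for 4 of the 9 members, namely MT2A, MT1X, SLC30A1 and MTF1. They were searched on both strands for the core of the metal response element, TGCACNC or TGCGCNC, because this is the sequence that MTF1 reads. The 250 bases before the start are shown for the 2 abundant metallothioneins and the zinc exporter, 5′ to 3′ on the gene's strand, with each core in capitals. The RefSeq starts used here differ from the ends of the GENCODE gene spans given above. The stretch of MT2A lies inside its GENCODE span, that of MT1X runs past the start of its span, and that of SLC30A1 lies apart from its span. They span chr16:56608334-56608583 for MT2A (plus strand), chr16:56682220-56682469 for MT1X (plus strand) and chr1:211579162-211579411 for SLC30A1 (minus strand).
MT2A: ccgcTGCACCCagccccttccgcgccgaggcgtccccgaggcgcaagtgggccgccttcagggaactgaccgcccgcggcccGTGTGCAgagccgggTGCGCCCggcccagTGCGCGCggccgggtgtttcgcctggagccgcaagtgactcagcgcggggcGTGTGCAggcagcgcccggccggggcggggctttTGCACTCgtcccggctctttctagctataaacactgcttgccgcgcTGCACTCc
MT1X: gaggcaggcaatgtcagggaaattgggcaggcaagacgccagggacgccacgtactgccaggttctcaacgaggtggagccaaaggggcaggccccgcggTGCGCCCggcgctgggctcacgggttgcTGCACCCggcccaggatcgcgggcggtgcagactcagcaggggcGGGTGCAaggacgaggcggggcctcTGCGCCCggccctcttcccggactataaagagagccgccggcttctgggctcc
SLC30A1: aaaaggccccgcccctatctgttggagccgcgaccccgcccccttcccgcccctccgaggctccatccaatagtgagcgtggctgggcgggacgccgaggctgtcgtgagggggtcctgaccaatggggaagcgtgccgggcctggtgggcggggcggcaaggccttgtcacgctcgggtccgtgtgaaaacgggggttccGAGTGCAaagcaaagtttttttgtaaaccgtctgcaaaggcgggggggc

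Over the full 300 bases MT2A held 8 cores, 5 of them on the gene's strand, and 7 of the 8 are in the stretch shown. As many cores were found in 7 of the 35116 promoters of that length, or 0.0199%. MT1X held 4 cores, 3 on the gene's strand, and 0.601% of promoters held as many. SLC30A1 held 2 cores, 1 of them in the stretch shown, and 8.60% of promoters held as many. MTF1's promoter held 0 cores, and 29.6% of all promoters held at least 1. No cores overlapped each other. Both metallothionein promoters also carried the letters TATAAA, beginning 29 bases before the start in MT2A and 30 bases before it in MT1X, which 7.33% of promoters held. These matches describe the letters only.

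Of the 7 metallothioneins, 2 made up nearly all of the family's transcripts. MT2A, the main human isoform in most tissues, had 2576 CPM in Drug_Radiation, 1936 in Drug, 2775 in Radiation and 2038 in Control, where the 2 irradiated libraries stood above the other two. By this level it ranked 78th, 94th, 77th and 100th among all genes of those libraries, in the same order. MT1X, at the far end of the cluster, had 249 CPM in Drug_Radiation, 208 in Drug, 232 in Radiation and 157 in Control, so that Control was lowest. MT2A's share of the summed family UMIs was 91.2% (exact Clopper-Pearson 95% interval 91.1 to 91.2) in Drug_Radiation, 90.2% (90.1 to 90.4) in Drug, 92.3% (92.0 to 92.5) in Radiation and 92.8% (92.5 to 93.2) in Control. MT1X made up 8.82%, 9.70%, 7.71% and 7.15% in the same order. Over all cells this was a slightly larger part of the family in both QTP libraries. Those libraries were also far deeper, and the order changed among cells of 6500 to 15000 UMIs. There MT1X held 473 of 4212 family UMIs in Control, the largest share, from 173 cells. It held 1872 of 22873 in Drug, 5789 of 74655 in Drug_Radiation and 1484 of 19513 in Radiation. Whether depth or QTP set the share was not tested.

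The other 5 metallothionein members were close to undetected. MT1G had 64 UMIs in Drug_Radiation, 79 in Drug, 5 in Radiation and 2 in Control. Its level was 0.906 CPM (exact Poisson 95% interval 0.717 to 1.13) in Drug, against 0.224 CPM (0.0271 to 0.807) in Control, a log2 ratio of 0.64 whose counting interval, 0.12 to 5.09, rests on the 2 Control UMIs. The 79 UMIs in Drug came from 41 cells, with up to 13 in a single cell, while the 64 in Drug_Radiation came from 59 cells with at most 2 each. MT1E had 39, 13, 4 and 1 UMIs in Drug_Radiation, Drug, Radiation and Control. MT1M had 4 and 2 UMIs in Drug_Radiation and Drug, and MT1A had 2 and 8. MT1F had 1 UMI in all, in Drug. MT1A, MT1M and MT1F were at 0 in Radiation and Control, where 3 counts would amount to 0.209 and 0.335 CPM, so the low levels of the deeper libraries would not have been detectable there. MT1F was also at 0 in Drug_Radiation, which allows up to 0.0212 CPM.

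Of 14 further metallothionein genes and pseudogenes looked up, 5 were counted and 9 were not among the features. MT3, known from brain, was the only one with at least 10 UMIs in a library, at 4.90 CPM in Drug_Radiation, 4.83 in Drug, 2.86 in Radiation and 2.01 in Control. The counted genes between MT2A and MT1X were all below 1 CPM, although they sit between the 2 most abundant genes of the cluster. Near-identical copies limit these counts: of all 50-base stretches in their annotated transcripts, 3.02% of those of MT2A and 18.3% of those of MT1X also occurred in another gene, against 16.5% for MT1G, 9.87% for MT1M and 0 for SLC30A1. In the last 300 bases, which a 3′ kit reads most, 42 of 340 such stretches were shared for MT2A, 116 of 610 for MT1X, 78 of 453 for MT1G and 81 of 418 for MT1M. How the counting treated reads from such stretches is not given in the sources used here.

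**Figure D1:**
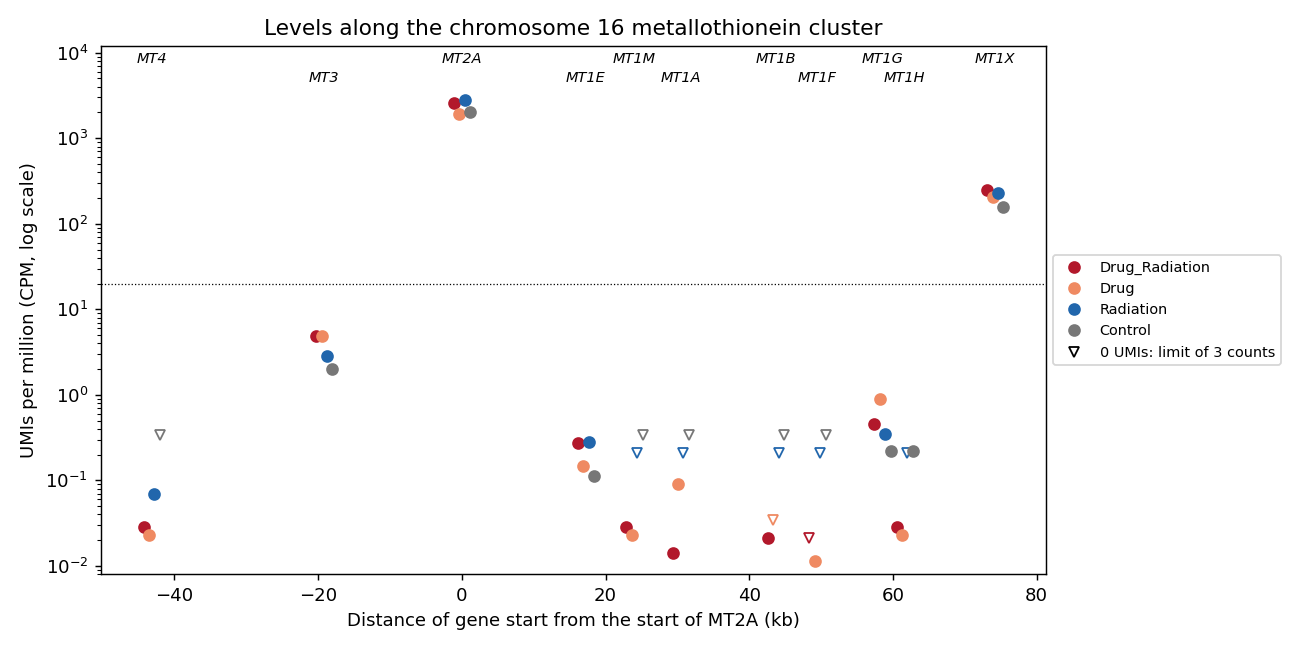
Levels of the metallothionein genes along chromosome 16, with the distance of each gene's start from that of MT2A in kb on the x axis and CPM on a log y axis, 1 point per library. Open triangles mark 0 UMIs and stand at the level of 3 counts, and the dotted line is 20 CPM: MT2A and MT1X alone lie above it.

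With QTP present, radiation went with a higher MT2A level. MT2A was at 2576 CPM (2567 to 2584) in Drug_Radiation, against 1936 CPM (1926 to 1945) in Drug, a log2 ratio of 0.41 (95% interval 0.40 to 0.42). MT1X was at 249 against 208 CPM in the same libraries, a log2 ratio of 0.26 (0.23 to 0.29). The median of all 5570 genes with at least 20 CPM was -0.18 in this comparison, so both genes stood above it, MT2A by 0.59 and MT1X by 0.44. A gene was called when it differed at least 2-fold and had 20 CPM in a compared library, and 2 members, MT2A and MT1X, could meet the level. Of these, 0 of 2 were past 2-fold, against 0.269% of all genes higher and 0.126% lower. Under the scalings, cell sets and added constants tried, the MT2A ratio stayed between 0.32 and 0.59 and that of MT1X between 0.24 and 0.44. The 2 libraries were close in depth but differed in the mitochondrial share of UMIs, 5.20% in Drug_Radiation and 4.08% in Drug. In tertiles of cells by that share, from lowest to highest, MT2A was at 2856, 2436 and 2291 CPM in Drug_Radiation, against 2262, 1722 and 1719 CPM in Drug. Ratios are of CPM + 1, and their intervals leave out the added 1.

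Without QTP, the irradiated library was again higher. MT2A was at 2775 CPM (2748 to 2802) in Radiation, against 2038 CPM (2008 to 2068) in Control, a log2 ratio of 0.45 (0.42 to 0.47). MT1X was at 232 CPM (224 to 240) in Radiation, against 157 CPM (149 to 165) in Control, a log2 ratio of 0.56 (0.47 to 0.65). The median of all genes was 0.18, leaving MT2A 0.26 and MT1X 0.38 above it. Of the 2 members, 0 were past 2-fold, against 2.18% of all genes higher and 0.872% lower. On these CPM values the radiation ratio of MT2A differed by -0.03 between cells with and without QTP, and that of MT1X by -0.30. With another scaling of the library totals (TMM), the MT2A ratio was 0.59 with QTP and 0.36 without, and the MT1X ratio 0.44 and 0.48. The differences thus depended on the scaling, with no test possible.

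The comparison without QTP depended on which cells were set side by side. Among cells of 6500 to 15000 UMIs, MT2A was at 2644 CPM in Radiation (770 cells), against 2695 CPM in Control (173 cells), a log2 ratio of -0.03 (-0.08 to 0.02). In those cells MT1X was at 218 CPM in Radiation, against 341 CPM in Control, a log2 ratio of -0.65 (-0.80 to -0.50). That ratio was -0.37 without the 5% of those cells richest in metallothionein, which were 8 of the 173 in Control. This set was chosen after the data were seen. In cells of 2500 to 5000 UMIs, a range chosen after the data were seen, the MT2A ratio was 0.64 and the MT1X ratio 0.81, from 890 Radiation and 1032 Control cells. The Control cells of 6500 to 15000 UMIs are the deepest few of that library, and MT1X in Control differed by depth, at 189 CPM in its deepest tertile and 113 in its shallowest. With QTP, the same range gave 0.35 for MT2A and 0.26 for MT1X, from 2533 Drug_Radiation and 1023 Drug cells.

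QTP alone went with a level of MT2A close to that of Control, but most genes were shifted. MT2A was at 1936 CPM in Drug, against 2038 CPM in Control, a log2 ratio of -0.07 (-0.10 to -0.05), where the median of all genes was 0.50. MT2A thus lay 0.57 below the median gene, and a scaling that removes most of this shift (TMM) gave -0.47. MT1X was at 208 CPM in Drug, against 157 CPM in Control, a log2 ratio of 0.40 (0.33 to 0.48) that became 0.01 with TMM and -0.02 with median-of-ratios scaling. MT1X thus had no direction that held over the scalings, while MT2A was lower in Drug under all 3. Of the 2 members, 0 were past 2-fold, against 8.6% of all genes higher and 2.34% lower. The Drug cells were also far deeper, and depth and QTP cannot be told apart here. Among cells of 6500 to 15000 UMIs, MT2A was at 2025 CPM in Drug, against 2695 in Control, and MT1X at 181 CPM, against 341. The MT1X log2 ratio was -0.91 (-1.06 to -0.77) there, and -0.64 without the 5% of those cells richest in metallothionein.

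Among irradiated cells, MT2A was somewhat lower with QTP and MT1X had no direction that held over the scalings. MT2A was at 2576 CPM in Drug_Radiation, against 2775 CPM in Radiation, for a log2 ratio of -0.11 (-0.12 to -0.09) that was -0.24 with TMM and -0.31 with median-of-ratios scaling. MT1X was at 249 against 232 CPM, a log2 ratio of 0.10 (0.05 to 0.16), which was -0.03 with TMM and -0.10 with median-of-ratios scaling. The Drug_Radiation cells were also far deeper, with a median of 18024.5 UMIs against 5299 in Radiation. In cells of 6500 to 15000 UMIs the MT2A ratio was -0.04 (-0.06 to -0.01) and the MT1X ratio -0.01 (-0.09 to 0.08). Of the 2 members, 0 were past 2-fold, against 1.15% of all genes higher and 1.6% lower. Set against Control, the combined treatment gave log2 ratios of 0.34 for MT2A and 0.66 for MT1X, where the median of all genes was 0.33. There too 0 of 2 were past 2-fold, against 5.36% of all genes higher and 2.42% lower. With TMM these ratios were 0.12 and 0.45, and in cells of 6500 to 15000 UMIs they were -0.07 and -0.65. Without the 5% of those cells richest in metallothionein they were -0.04 and -0.29.

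The zinc exporter SLC30A1 followed an order of its own. It had 12.6 CPM (12.1 to 13.2) in Drug_Radiation, 8.73 (8.12 to 9.37) in Drug, 7.12 (5.80 to 8.64) in Radiation and 4.58 (3.29 to 6.22) in Control. Drug_Radiation was above all others, while the intervals of Drug and Radiation overlapped, and so did those of Radiation and Control. The log2 ratio was 0.49 (0.41 to 0.66) for Drug_Radiation over Drug and 0.54 (0.10 to 1.195) for Radiation over Control. It was 0.75 (0.54 to 1.13) for Drug_Radiation over Radiation, 0.80 (0.48 to 1.42) for Drug over Control and 1.29 (1.017 to 1.95) for Drug_Radiation over Control. The last is larger than 2-fold, but the gene stayed under 20 CPM in every library and was not among the genes tested for a call. The median of all genes, in the order of these 5 comparisons, was -0.18, 0.18, 0.13, 0.50 and 0.33. In Drug over Control SLC30A1 thus lay 0.30 above the median gene, and TMM gave 0.46. All 5 SLC30A1 ratios were above 0 under each of the scalings, cell sets and added constants tried, with a range of 0.88 to 1.44 for Drug_Radiation over Control. In cells of 6500 to 15000 UMIs, however, the intervals of Drug_Radiation over Drug, 0.21 (-0.09 to 0.55), and of Radiation over Control, 0.59 (-0.52 to 2.22), took in 0. Control held 41 SLC30A1 UMIs in all.

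MTF1 was about as low. It had 9.36 CPM (8.87 to 9.88) in Drug_Radiation, 10.8 (10.2 to 11.6) in Drug, 10.8 (9.18 to 12.7) in Radiation and 5.70 (4.24 to 7.49) in Control. Drug and Radiation did not differ beyond counting error, and Control, with 51 UMIs, was lowest. The log2 ratio was -0.19 (-0.33 to -0.09) for Drug_Radiation over Drug and 0.82 (0.46 to 1.41) for Radiation over Control. It was -0.19 (-0.45 to 0.04) for Drug_Radiation over Radiation and 0.82 (0.52 to 1.36) for Drug over Control. The median of all genes, in the order of these comparisons, was -0.18, 0.18, 0.13 and 0.50. MTF1 thus lay -0.01 from the median gene in Drug_Radiation over Drug. In Drug over Control it lay 0.32 above the median, and TMM gave 0.47. In cells of 6500 to 15000 UMIs the Radiation over Control ratio was 1.27 (0.27 to 2.95), from 6 Control UMIs, and in cells of 2500 to 5000 UMIs it was 0.09. MTF1 is known to be governed at the protein level by zinc, which transcript counts do not show.

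**Figure D2:**
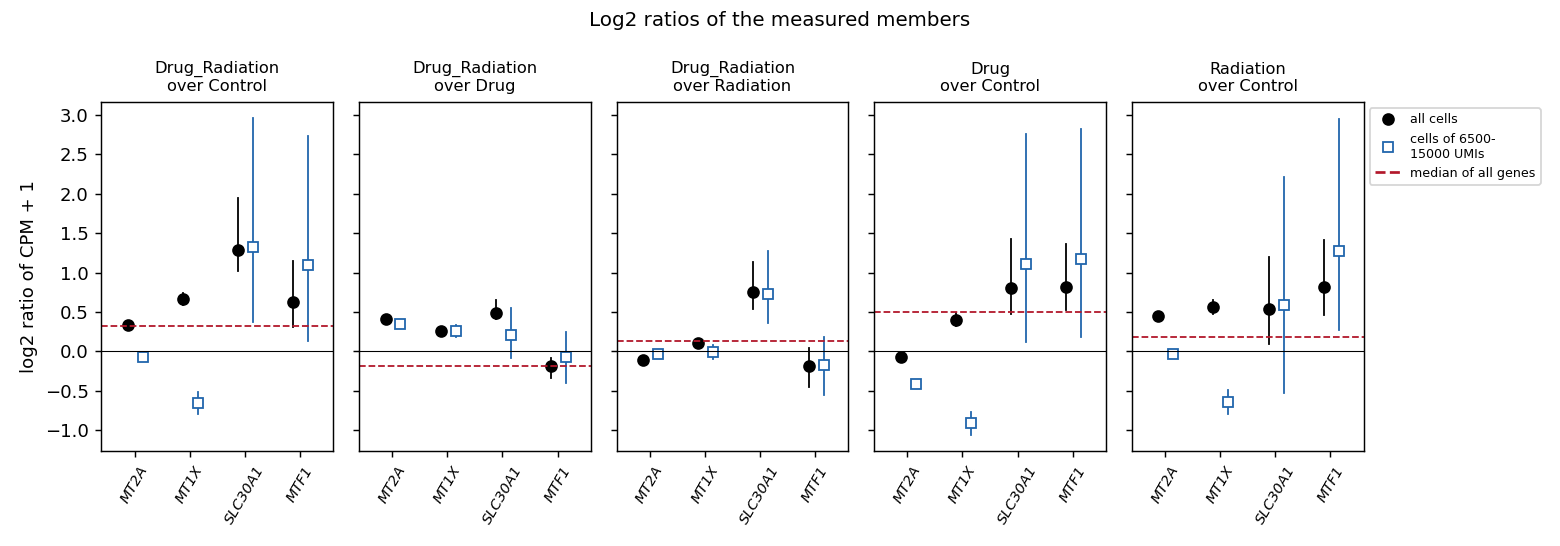
Log2 ratios of CPM + 1 for MT2A, MT1X, SLC30A1 and MTF1 in the 5 comparisons, with 95% counting intervals, from all cells (filled circles) and from cells of 6500 to 15000 UMIs (open squares), and the median of all genes as a dashed line. In Drug_Radiation over Drug both sets of cells place MT2A, MT1X and SLC30A1 above 0, but the SLC30A1 interval from the open squares takes in 0. In Radiation over Control MT2A and MT1X lie above 0 in all cells. Among cells of 6500 to 15000 UMIs MT1X lies below 0 there, while the MT2A interval takes in 0.

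Because depth sets how many cells show a transcript, shares were taken after each cell was thinned to 1000 UMIs. MT2A was then seen in 76.0% (75.0 to 77.0) of Drug_Radiation cells, 67.8% (66.3 to 69.3) of Drug cells, 74.9% (73.2 to 76.6) of Radiation cells and 63.0% (61.3 to 64.7) of Control cells. Without thinning the shares were 99.9%, 99.8%, 96.4% and 81.1% in the same order. MT1X was seen in 15.9%, 12.3%, 13.2% and 7.89% of thinned cells, against 72.5%, 64.4%, 36.6% and 17.0% unthinned. Both irradiated libraries held more positive thinned cells than their unirradiated counterparts. No cell type without these genes is present in the line, so the part of free RNA in such shares could not be measured.

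The metallothioneins were spread unevenly over cells. In thinned cells the variance of MT2A was 2.998 times its mean in Drug_Radiation, 2.86 times in Drug, 4.02 times in Radiation and 4.16 times in Control. Random sampling of equal cells gives a ratio of 1, and genes within 25% of MT2A's level had medians of 1.11, 1.11, 1.10 and 1.16. In each library 0 of these 27 to 36 genes had a ratio as high as MT2A. The 10% of thinned cells with most MT2A held 35.7% of its UMIs in Drug_Radiation, 38.8% in Drug, 38.7% in Radiation and 45.3% in Control. For genes of similar level the medians were 23.6%, 26.2%, 22.7% and 25.9%. MT1X was uneven as well, with ratios of 1.75, 1.87, 2.61 and 2.67, and 1 of 230 genes of similar level in Drug_Radiation and 0 of 237 to 329 in the other libraries reached it. The most MT2A UMIs in a single cell were 858 in Drug_Radiation, 870 in Drug, 173 in Radiation and 201 in Control.

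**Figure D3:**
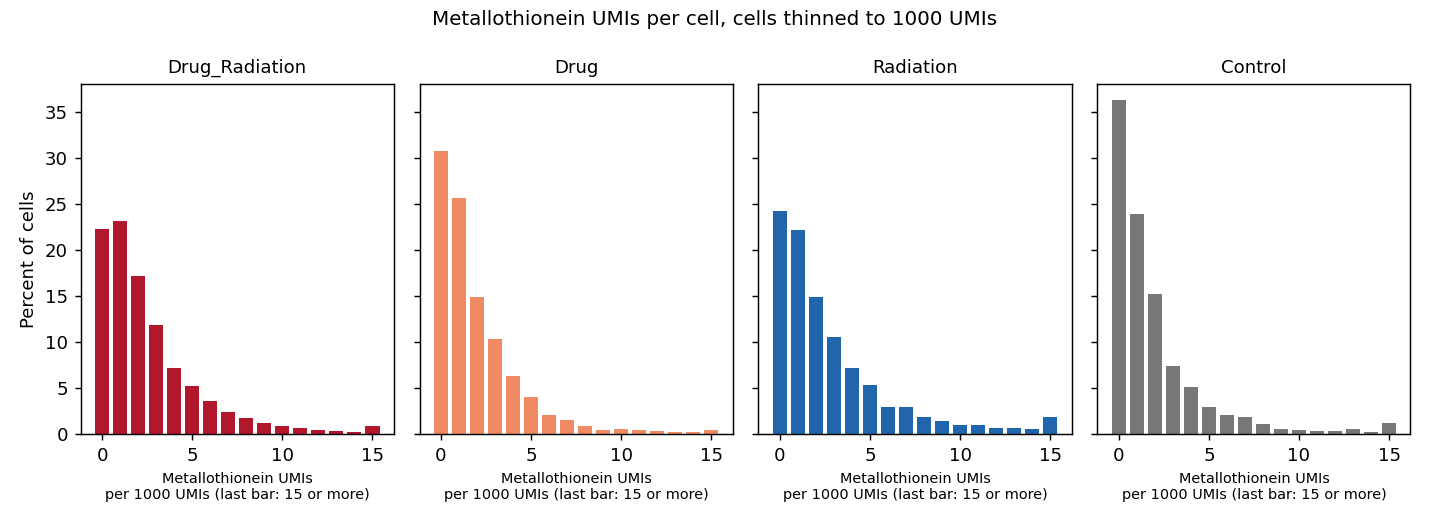
Percent of cells by the number of metallothionein UMIs they hold after thinning to 1000 UMIs, 1 panel per library. Cells with none make up 22.4% of Drug_Radiation, 30.8% of Drug, 24.3% of Radiation and 36.3% of Control cells, and each library has a long tail of cells with 15 or more.

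MT1X followed MT2A from cell to cell. Their partial correlation, given each cell's total UMIs, was 0.70 over 6990 Drug_Radiation cells, 0.70 over 3802 Drug cells, 0.57 over 2425 Radiation cells and 0.39 over 3183 Control cells. Cells of a library share its preparation, and shallow cells lower such a value, so it is a description. When the cells of each library were ordered by MT2A and cut into quintiles, MT1X in Drug_Radiation was at 771 CPM in the highest quintile and 36.8 CPM in the lowest. It was at 693 and 21.8 CPM in Drug, at 843 and 21.6 CPM in Radiation and at 576 and 13.6 CPM in Control. The number of MT1X UMIs per 100 MT2A UMIs was 12.6 in the highest quintile of Drug_Radiation, 14.1 in Drug, 11.5 in Radiation and 9.76 in Control. In the middle quintile it was 6.18, 6.53, 3.63 and 4.76, and in the lowest 6.45, 5.98, 6.62 and 57.1, the last from 20 MT1X and 35 MT2A UMIs. Since MT2A set the quintiles and is the divisor, this number is not independent of the ordering.

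SLC30A1 and MTF1 differed far less between these quintiles than MT1X. The partial correlation of SLC30A1 with MT2A was 0.03 in Drug_Radiation, 0.03 in Drug, -0.00 in Radiation and 0.01 in Control, and that of MTF1 was between -0.02 and 0.05. SLC30A1 was at 12.8 CPM (11.6 to 14.2) in the highest MT2A quintile of Drug_Radiation and 10.6 CPM (9.40 to 11.9) in the lowest. It was at 9.54 and 8.01 CPM in Drug, 7.32 and 7.91 in Radiation, and 5.81 and 3.40 in Control. MTF1 was at 9.07 CPM in the highest and 9.81 CPM in the lowest quintile of Drug_Radiation, and at 10.03 and 11.4 CPM in Drug. It was at 14.6 (10.6 to 19.8) and 8.26 CPM (5.24 to 12.4) in Radiation and at 6.34 and 2.04 CPM in Control, where these are 12 and 3 UMIs. Both genes gave few UMIs per cell, so a weak relation would not have been detectable.

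**Figure D4:**
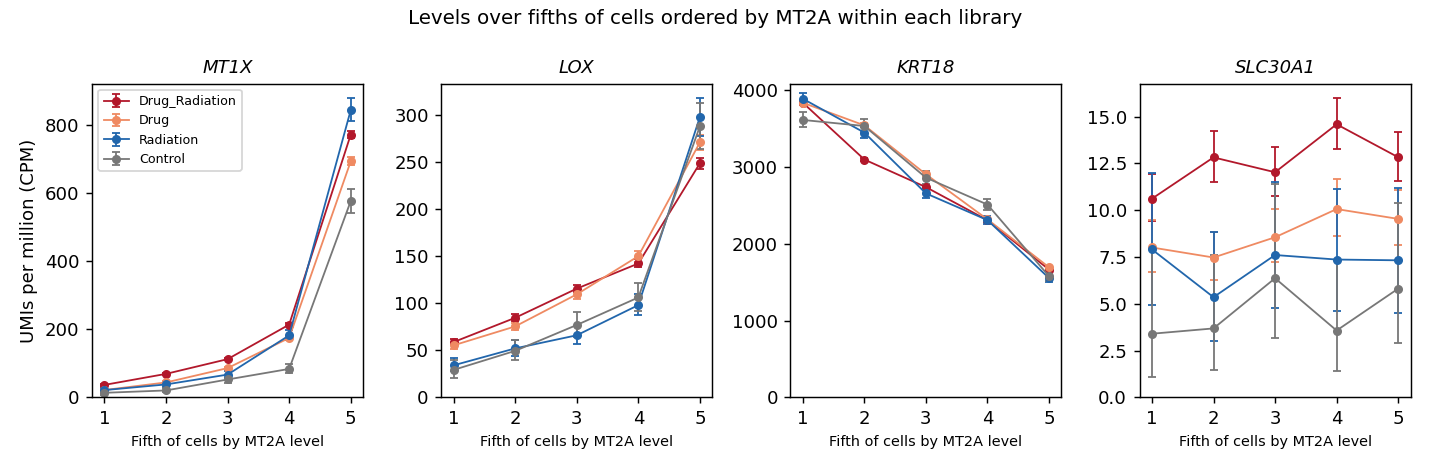
CPM of MT1X, LOX, KRT18 and SLC30A1 over quintiles of cells ordered by MT2A within each library (1 lowest, 5 highest), with exact Poisson 95% intervals. MT1X and LOX are highest and KRT18 lowest in the cells richest in MT2A in all 4 libraries, while SLC30A1 stays between 3.40 and 14.6 CPM.

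Among 3986 genes with at least 20 CPM in every library, those that most followed the summed metallothioneins over cells were ranked by their weakest partial correlation among the 4 libraries. LOX, the lysyl oxidase that cross-links collagen, had 0.35 in Drug_Radiation, 0.36 in Drug, 0.31 in Radiation and 0.24 in Control. NDRG1, a gene known to be induced by hypoxia and by iron chelation, had 0.37, 0.39, 0.37 and 0.19. CADM1, TIMP1, CPA6 and PSAP were also among the 8 highest, with values of 0.17 to 0.41. For comparison, the 5th to 95th percentile of all genes ran from -0.12 to 0.11 in Drug_Radiation and from -0.06 to 0.05 in Control. In Drug_Radiation, LOX was at 249 CPM in the highest MT2A quintile and 58.8 in the lowest, and in Control at 288 and 29.3.

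The opposite end held the keratins of simple epithelia. KRT18 had -0.41 in Drug_Radiation, -0.42 in Drug, -0.39 in Radiation and -0.29 in Control, and KRT8 had -0.43, -0.43, -0.41 and -0.23. S100A6, a calcium-binding protein, and ANXA1, an annexin, were the other two, with values of -0.44 to -0.19. KRT8 was at 1383 CPM in the highest MT2A quintile of Drug_Radiation and 3225 in the lowest, and at 1037 and 2169 CPM in Control. The metallothionein-rich cells of each library were thus also those with more LOX and less KRT8 and KRT18 per UMI.

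**Figure D5:**
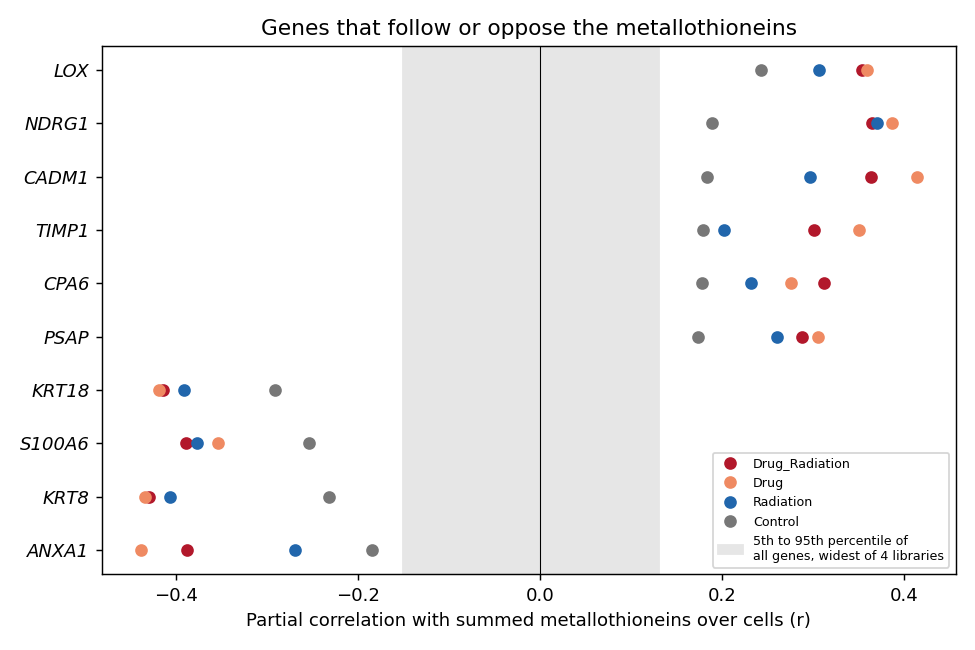
Partial correlation over cells, given total UMIs, of 6 of the 8 genes that most followed and the 4 that most opposed the summed metallothioneins, 1 point per library. The grey band is the widest 5th to 95th percentile of all genes among the 4 libraries. Every point lies outside it, but the genes were picked as the extremes of these same values, so this is no separate result. Control is nearest to 0 for each gene.

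Cells rich in S, G2 and M phase transcripts held less MT1X per UMI. In cells that drew 1% or more of their UMIs from such genes, MT1X was at 126 CPM in Drug_Radiation, against 252 CPM in its other cells. It was at 85.0 against 217 CPM in Drug, 119 against 237 in Radiation, and 40.1 against 163 in Control. Of the lower values, that in Radiation rested on 68 MT1X UMIs (92.4 to 151 CPM) and that in Control on 18 (23.8 to 63.3 CPM). The cells rich in phase transcripts numbered 122, 226, 76 and 125 in the same order. They were deeper than the rest, with a median of 3525 against 2278 UMIs in Control. MT2A was also lower in such cells in 3 libraries, at 2380 against 2579 CPM in Drug_Radiation, 1542 against 1965 in Drug and 2335 against 2793 in Radiation, with intervals that did not overlap. In Control it was higher, at 2311 CPM (2173 to 2456) against 2023 CPM (1993 to 2054), and these intervals did not overlap either. All of these intervals cover counting error and leave out the uneven spread of MT2A and MT1X over cells.

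Across the 4 libraries, the genes whose pattern lay closest to that of MT2A were CD63, FTL, EEF1A1, FRMD6 and HLA-B, among 1887 genes with at least 50 CPM throughout. The measure was the Euclidean distance of centred log2 values, 0.15 for CD63 and 0.21 for HLA-B. FTL, the ferritin light chain that stores iron, had 5904 CPM in Drug_Radiation, 4989 in Drug, 6358 in Radiation and 4466 in Control, the order of MT2A but for Drug and Control. MT1X ranked 53rd, with a distance of 0.37. With 4 libraries, many genes share a pattern.

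Other metal genes were read from lists of zinc, copper and iron genes. Of the zinc exporters besides SLC30A1, 3 of 10 reached 20 CPM with QTP and 0 were past 2-fold in any comparison. Of the SLC39 zinc importers, which bring zinc into the cytosol, 4 of the 9 at 20 CPM were past 2-fold higher in Drug than in Control and the same 4 in Drug_Radiation than in Control. They were SLC39A1, SLC39A7, SLC39A11 and SLC39A13, and the share of all genes was 8.6% and 5.36%. SLC39A7, which releases zinc from the endoplasmic reticulum, had 27.9 CPM in Drug_Radiation, 31.9 in Drug, 24.98 in Radiation and 12.3 in Control. SLC39A13, of the Golgi, had 67.7, 70.4, 61.1 and 30.6 CPM. Both stood lowest in Control. With TMM scaling 0 of the 9 importers were past 2-fold for Drug over Control and 0 of 10 for Drug_Radiation over Control. Their median log2 ratio for Drug over Control was 0.75, where that of all genes was 0.50, and 0.37 with TMM, where that of all genes was 0.11.

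Among copper and iron genes, STEAP3, a metalloreductase, was past 2-fold higher in Drug_Radiation, Drug and Radiation over Control, 1 of 9 copper genes at 20 CPM each time, beside 5.36%, 8.6% and 2.18% of all genes. It was so with TMM as well, but not with median-of-ratios scaling in Drug over Control. It was at 31.9 CPM in Drug_Radiation, 30.8 in Drug, 26.6 in Radiation and 11.2 in Control. HMOX1, which breaks down haem and is a target of the oxidant-responsive factor NRF2, was at 28.6, 29.1, 17.7 and 11.8 CPM in the same order. In the NRF2 list, 3 genes, HMOX1 and PGD among them, were past 2-fold higher and TXNRD1 past 2-fold lower in Drug over Control, of 9 genes at 20 CPM, beside 8.6% of all genes higher and 2.34% lower. With TMM 2 genes, PGD among them, were higher and TXNRD1 lower, and with median-of-ratios scaling PGD alone was higher and TXNRD1 lower. TXNRD1, the selenium-dependent thioredoxin reductase, had 613 CPM in Drug_Radiation, 617 in Drug, 1609 in Radiation and 1767 in Control. Both QTP libraries were low and the other two high, an order that MT2A did not share. Of the glucocorticoid targets, TSC22D3 was past 2-fold higher in Drug over Control, 1 of 5, and of the heat shock genes DNAJB1, 1 of 10, a share near the 8.6% of all genes. With TMM and with median-of-ratios scaling neither was, and SGK1 was the only glucocorticoid target past 2-fold, lower in Drug.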

How the data were processed

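Single-cell RNA of 4 libraries was measured, 1 per group. The authors deposited UMI counts for each gene in each cell barcode, as whole numbers and not normalized. Per the labels' protocols, a PIPseq V T2 3' kit was used, while another label text names 10x Genomics, so the kit is not settled. The submitters' processing notes name the build hg38 and Seurat 4.3.3, without their roles. The aligner, annotation and counting rule: not given in the sources used here.

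Cells with at least 500 UMIs, 300 genes and at most 20% mitochondrial UMIs were kept (6990 of 7006 barcodes in Drug_Radiation, 3802 of 3806 in Drug, 2425 of 2428 in Radiation and 3183 of 3184 in Control). No doublet caller was run and no doublets were removed. Nuclear-encoded UMIs summed to 141608005 in Drug_Radiation, 87195885 in Drug, 14331904 in Radiation and 8948054 in Control. Levels were summed per library as CPM, and log2 ratios were taken with 1 CPM added. Intervals (95%) were exact Poisson for levels, Clopper-Pearson for shares and conditional binomial for ratios, and cover counting error only. With 1 library per group no test was made, and a call is a 2-fold difference at 20 CPM or more in a compared library. A count of 0 was bounded at 3 counts. Correlations over cells were partial Pearson correlations given log10 total UMIs. Thinning used 1 seed. Calculations used numpy 2.4.6, scipy 1.17.1 and pandas 2.3.3. The alternatives were TMM scaling (edgeR 4.0.16) and median-of-ratios scaling (DESeq2 1.42.0) in R 4.3.3, other totals, cell filters, added constants and cell sets.

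The members and gene lists were chosen with earlier results of these data known. Genes named beside the members were drawn from the 2 highest and 2 lowest by mean ratio in each list or those past 2-fold, the 8 and 4 extreme correlates over cells, and the 5 closest in pattern to MT2A. Genes past 2-fold and not in that rule were named after their values were seen. Results of some genes named by this rule are not reported here.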

Additional observations from a re-analysis of the deposited data

Results flagged for a closer look

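MTF1 stood out because its log2 ratio of irradiated over unirradiated cells had opposite signs with and without QTP. The ratio was -0.19 for Drug_Radiation over Drug and 0.82 for Radiation over Control, and this difference between the ratios was not tested. The median of all genes was -0.18 and 0.18 in these comparisons. MTF1 thus lay -0.01 from the median gene with QTP, and 0.64 above it without QTP. The difference between the ratios rests on 51 UMIs in Control. With TMM scaling the ratio was -0.03 with QTP and 0.75 without. Without QTP it was 1.27 (0.27 to 2.95) in cells of 6500 to 15000 UMIs. It was 0.09 in cells of 2500 to 5000 UMIs, a range chosen after the data were seen.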

How the results depend on the processing

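The results below are log2 ratios of the summed metallothioneins, in the order Drug_Radiation over Drug, Radiation over Control, Drug over Control, Drug_Radiation over Radiation and Drug_Radiation over Control. The reported values were 0.40, 0.45, -0.03, -0.09 and 0.36. They were 0.58, 0.37, -0.43, -0.22 and 0.15 with TMM, and 0.55, 0.38, -0.46, -0.29 and 0.091 with median-of-ratios scaling. In cells of 6500 to 15000 UMIs they were 0.34, -0.085, -0.46, -0.036 and -0.12. In those cells without the 5% richest in metallothionein, a set chosen after seeing the data, they were 0.32, -0.016, -0.38, -0.042 and -0.058. Without the 5% richest of all cells they were 0.45, 0.58, 0.087, -0.052 and 0.53. With equal weight per cell the last 4 were 0.55, 0.019, -0.14 and 0.41. With mitochondrial UMIs in the total, Drug_Radiation gave 0.38 over Drug, -0.11 over Radiation and 0.33 over Control. In cells of 2500 to 5000 UMIs, also chosen afterwards, Radiation over Control was 0.66. Drug_Radiation over Drug thus stayed above 0 in all 11 settings, and Drug_Radiation over Radiation stayed below 0 in all 11, between -0.29 and -0.036. Radiation over Control was below 0 in 2 of 12, Drug over Control above 0 in 2 of 11 and Drug_Radiation over Control below 0 in 2 of 11. The cause was not tested.

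Counts of genes past 2-fold, in the same order, were 15, 105, 477, 60 and 281 higher and 7, 42, 130, 84 and 127 lower. Without the 20 CPM filter they were 25, 216, 896, 191 and 626 higher and 15, 149, 316, 210 and 330 lower. With TMM they were 27, 70, 67, 39 and 108 higher and 0, 53, 174, 90 and 147 lower. The 8 genes that most followed the metallothioneins shared 7 with a rank correlation, and the 4 lowest shared 3. No paired analysis was possible because each group has 1 library and the labels give no replicate numbers. Control, with the fewest UMIs, limits SLC30A1 and MTF1 to 41 and 51 UMIs and leaves 3 members at 0.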
